A study of Bos taurus with 12 samples.

Results

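The heat shock proteins and related chaperones described here are 10 genes whose messenger RNA was measured in F7, a line of bovine embryonic stem cells. They were chosen by name, as the entries of the deposited count table whose Entrez identifiers map to these symbols, and all 10 have 1 entry each among 19285. All 10 passed the filter on low counts, and 13920 genes in all were tested. Of the 10, 6 encode chaperones of the cytosol (HSPA1A, HSPA8, HSPH1, HSPB1, DNAJB1 and HSP90AA1), 2 of the endoplasmic reticulum (HSPA5 and HSP90B1) and 2 of the mitochondrion (HSPD1 and HSPE1).

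The 12 libraries of polyadenylated RNA fall into 4 groups of 3: MC, then 1/7MC, then 1/7MC+Pyr and lastly 1/7MC+Pyr+FGF. All are wild type and of 1 line, so no result extends to a second line. The MC group carries the treatment label NC, and the labels do not spell out MC. From the series title, the work concerned feeder layers at low density, pyruvate, and a recombinant form of human basic FGF, a fibroblast growth factor. Pyr and FGF in the group names are read here as the last 2. No dose, time or culture age is given. No source separates the replicates of a group by culture, and p-values here speak for the spread between libraries alone.

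Chaperones bind unfolded or aggregating proteins and help them to fold. In the cytosol, the transcription factor HSF1 switches on inducible heat shock genes such as HSPA1A, DNAJB1 and HSPH1 when misfolded protein accumulates, whereas HSPA8 is made at a high level without stress. The reticulum has its own chaperones, BiP (HSPA5) and GRP94 (HSP90B1), which are raised by the unfolded protein response through ATF6, XBP1 and the kinase PERK (EIF2AK3). HSPD1 and HSPE1 are the large and small parts of the HSP60 chamber that folds proteins imported into mitochondria, and the gene table places their genes next to each other.

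Total counts ran from 27373759 to 44440972 per library. The gene models behind the counts were not the same throughout. Among 61 Entrez identifiers that 2 or more entries share, 53 had unequal counts in MC replicates 2 and 3, but 0 had in any of the remaining 10 libraries. MC results are for this reason repeated with replicate 1 standing alone for MC, on the assumption that its spread is that of the other groups. Of the 10 chaperones, HSPB1 differed most within MC, at 297 CPM (read counts scaled to a common library size) in MC replicate 1 against 143 and 139 in replicates 2 and 3. Among 10381 genes with a mean of at least 5 CPM in MC, 620 (5.97%) differed over 2-fold in this way. With 1 library against 2, gene model and replicate cannot be told apart. The label of stem cells was checked against 8 markers (POU5F1, NANOG, LIN28A, DNMT3B, SALL4, PRDM14, EPCAM and CDH1). None of the 8 was at 0 in any library, and their summed level spanned 4465 to 4557 CPM for MC, 2499.7 to 2795 for 1/7MC, 4182 to 4423 for 1/7MC+Pyr and 3342 to 3769.6 for 1/7MC+Pyr+FGF. The 15 fibroblast and feeder markers, none at 0, summed to 6758 to 6960.4 CPM for MC, 20488 to 27866 for 1/7MC, 23980.0 to 35779 for 1/7MC+Pyr and 16113 to 22958 for 1/7MC+Pyr+FGF. The 8 mitochondrially encoded genes taken as a sign of RNA quality summed to 28166 to 31998, 20720.2 to 29626, 28622 to 37408 and 25563 to 38453 CPM in the same order of groups. The 7 endothelial and blood markers summed to 14.6 to 54.3 CPM over all libraries, with at most 1 of them at 0. In these bulk libraries fewer cells of a type and less RNA per cell cannot be told apart. The part of these marker lists in the chaperone results was not tested.

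Levels of different genes were compared as CPM per kilobase of the gene length in the count table. HSPA8, the constitutive HSP70 of the cytosol, stood highest with a mean of 1243 CPM per kilobase over the 12 libraries. HSP90AA1, a cytosolic HSP90 gene, followed at 718. From 424 down to 247 came HSPE1, HSPB1, HSPA5, HSP90B1 and HSPA1A, and their ranges over the libraries overlap one another. HSPD1 stood at 149, HSPH1 at 66.3 and DNAJB1 at 27.2. DNAJB1 lay at the 77.2 percentile of the tested genes and the other 9 between 90.8 and 99.7. Together the 10 genes took 0.657% to 0.964% of all counts, the lowest share in 1/7MC replicate 2 and the highest in 1/7MC+Pyr+FGF replicate 1.

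**Figure D1:**
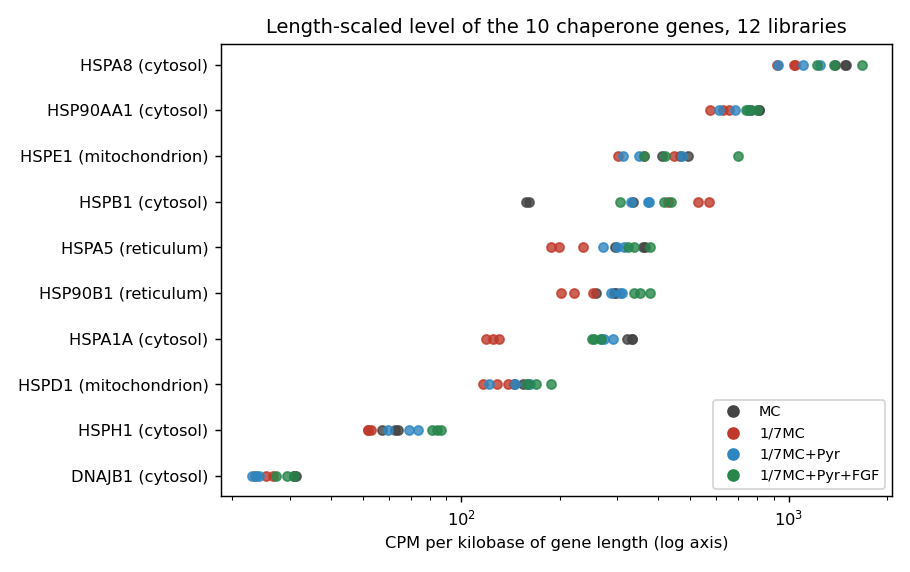
Level of each of the 10 chaperone genes in CPM per kilobase of gene length (log axis), 1 point per library, coloured by group. HSPA8 and HSP90AA1 lie highest and DNAJB1 lowest, and the 1/7MC points of HSPA1A lie apart on the low side at 119 to 131.

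The comparison of 1/7MC with MC shows the chaperones before any addition. In 1/7MC, 6 of the 10 were lower (HSPA1A, HSPA5, HSPA8, HSP90AA1, HSP90B1 and DNAJB1) and 1, HSPB1, was higher, by edgeR's quasi-likelihood test at an adjusted p under 0.05. Over all genes tested 45% were called in this comparison, 21.3% as lower and 23.7% as higher. The median of the 10 was -0.32 on the log2 scale, against 0.005 over all genes. With MC replicate 1 alone 3 calls remained, HSPA1A and HSPA5 lower and HSPB1 higher, where 23.9% of all genes were called, 9.96% as lower and 14% as higher. The CPM of the 2 groups did not overlap for 9 of the 10 chaperones, all but HSPE1, as for 58% of all genes.

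The comparison of 1/7MC+Pyr with 1/7MC shows what differed where pyruvate was added. Here 4 of the 10 were higher (HSPA1A, HSPA5, HSP90B1 and HSPH1), against 8.08% of all genes called higher, 10.1% called lower and 18.1% called either way. With all 12 libraries none of the 10 was called lower by edgeR, at an unadjusted p under 0.05 or with DESeq2. HSPB1 was called lower with MC replicates 2 and 3 left out of the fit and with only these 2 groups fitted. Their median was 0.15, against -0.01 over all genes, and the groups did not overlap for 5 of the 10 (37.5% of all genes). Without 1/7MC replicate 3, or without 1/7MC+Pyr replicate 3, only 2 of the 4 calls remained.

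In 1/7MC+Pyr+FGF against 1/7MC, 7 of the 10 were higher: HSPA1A, HSPA5, HSPH1, HSP90B1, HSPA8, HSPD1 and HSP90AA1. In this comparison 11.9% of all genes were called higher, 15.7% lower and 27.6% either way. With all 12 libraries none of the 10 was called lower by edgeR, at an unadjusted p under 0.05 or by DESeq2, which called 8 higher (12.5% of all genes). With MC replicates 2 and 3 left out of the fit 6 were higher and 1, HSPB1, lower. The median of the 10 was 0.47, against 0.01 over all genes, and the groups did not overlap for 8 of the 10 (46.1% of all genes).

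The step from 1/7MC+Pyr to 1/7MC+Pyr+FGF differs, by its labels, in the added growth factor. None of the 10 passed the edgeR test there, where 2.76% of all genes did, 0.639% as higher and 2.12% as lower. At an unadjusted p under 0.05, 5 of the 10 were higher (8.46% of all genes), and DESeq2 called 2 higher, HSPH1 and DNAJB1 (1.98% of all genes). The median of the 10 was 0.25, against 0.009 over all genes. The groups did not overlap for 4 of the 10, HSPH1, DNAJB1, HSPA5 and HSP90B1 (21.5% of all genes).

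Against MC, 1/7MC+Pyr had 3 chaperones lower (HSPA1A, HSPA8 and DNAJB1) and 1 higher (HSPB1), where 28.4% of all genes were called, 13.2% as lower and 15.2% as higher. With MC replicate 1 alone none of the 10 was called by edgeR, where 9.71% of all genes were (3.15% lower, 6.56% higher). The CPM did not overlap for 4 of the 10, as for 43.1% of all genes. 1/7MC+Pyr+FGF had 3 higher than MC (HSPH1, HSPB1 and HSP90B1) and 1 lower (HSPA1A), where 32.5% of all genes were called, 17.1% as higher and 15.4% as lower. Of these 4 only HSPH1 remained with MC replicate 1 alone, where 12% of all genes were called (5.86% higher, 6.13% lower). The CPM of 1/7MC+Pyr+FGF and MC did not overlap for 3 of the 10, as for 44.2% of all genes. These comparisons share libraries: the 1/7MC libraries enter 3 of the 6 and the MC libraries 3, with 1/7MC against MC among both, so they are not independent of each other.

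**Figure D2:**
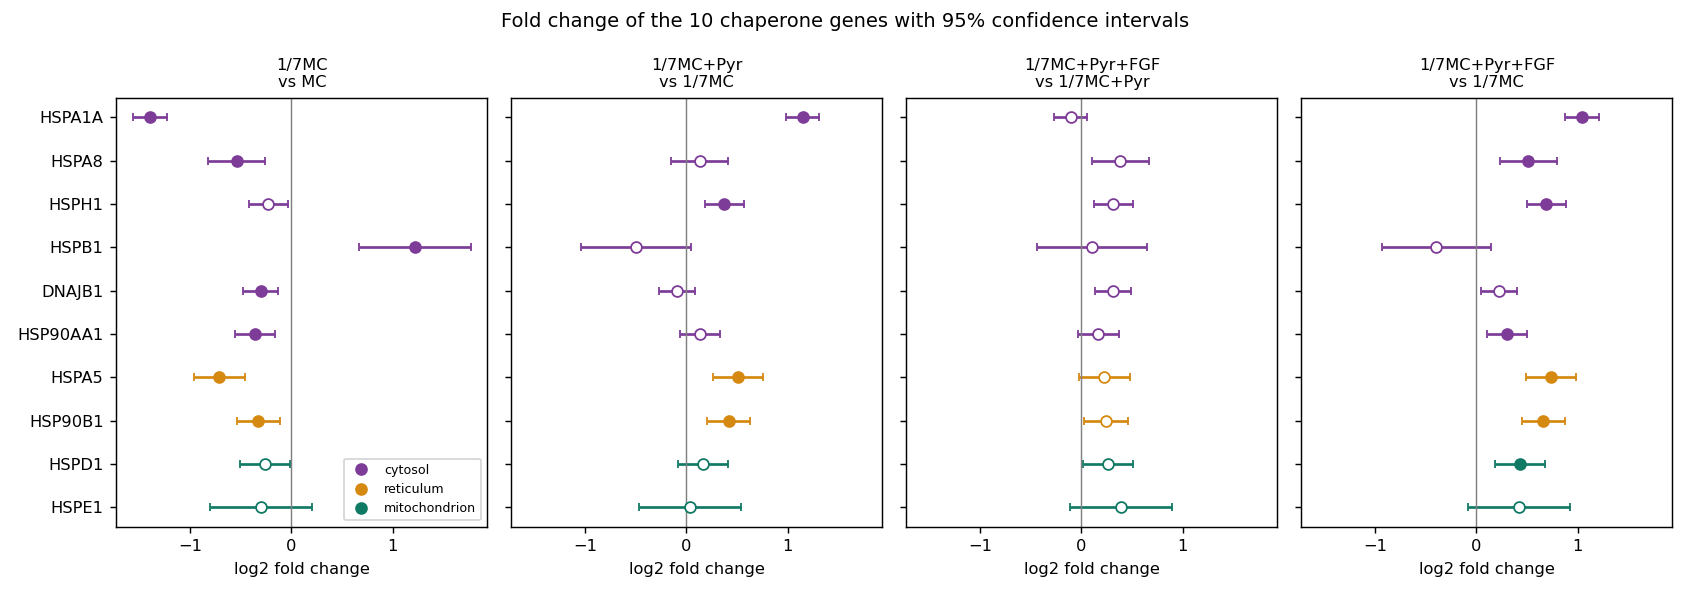
Log2 fold change of each chaperone in 4 comparisons, with 95% confidence intervals from edgeR's quasi-likelihood fit and colours for the compartments. Filled points passed an adjusted p under 0.05 (7, 4, 0 and 7 of 10 from left to right), and HSPA1A has the largest size among the 10 in all panels but the third.

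By compartment, both reticulum chaperones were called in 1/7MC against MC (lower), in 1/7MC+Pyr against 1/7MC (higher) and in 1/7MC+Pyr+FGF against 1/7MC (higher). Their median fold changes on the log2 scale were -0.52, 0.46 and 0.70. With MC replicate 1 alone the first comparison gave -0.50 for HSPA5 and -0.18 for HSP90B1. It then gave -1.41 (HSPA1A) to 0.61 (HSPB1) for the cytosolic genes. The 6 cytosolic chaperones had medians of -0.33, 0.13 and 0.41 in the same 3 comparisons, with 4 lower and 1 higher, then 2 higher, then 4 higher. Over all genes 21.3% were lower and 23.7% higher in the first, 8.08% were higher in the second and 11.9% in the last of these. The 2 mitochondrial ones had medians of -0.28, 0.10 and 0.42, with 0, 0 and 1 called. At an unadjusted edgeR p under 0.05 HSPD1 was also lower in the first comparison and neither was called in the second, and DESeq2 called neither in either. Summed over its 2 genes, the reticulum spanned 1358 to 1617 CPM for MC, 968 to 1212 for 1/7MC, 1388 to 1543 for 1/7MC+Pyr and 1671 to 1868 for 1/7MC+Pyr+FGF, so the 1/7MC libraries were the lowest and the 1/7MC+Pyr+FGF libraries the highest, with no overlap. The mitochondrial sum overlapped between 1/7MC (471 to 574 CPM) and 1/7MC+Pyr (490.1 to 683). Differences between the compartments as whole sets were not tested. For 1 gene of each, the within-library count ratio of HSPA5 (reticulum) to HSPA8 (cytosol) overlapped between the groups in all 6 comparisons. The exact permutation p was 0.2 to 0.9, and with 3 libraries a group this test cannot give a p under 0.1.

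**Figure D3:**
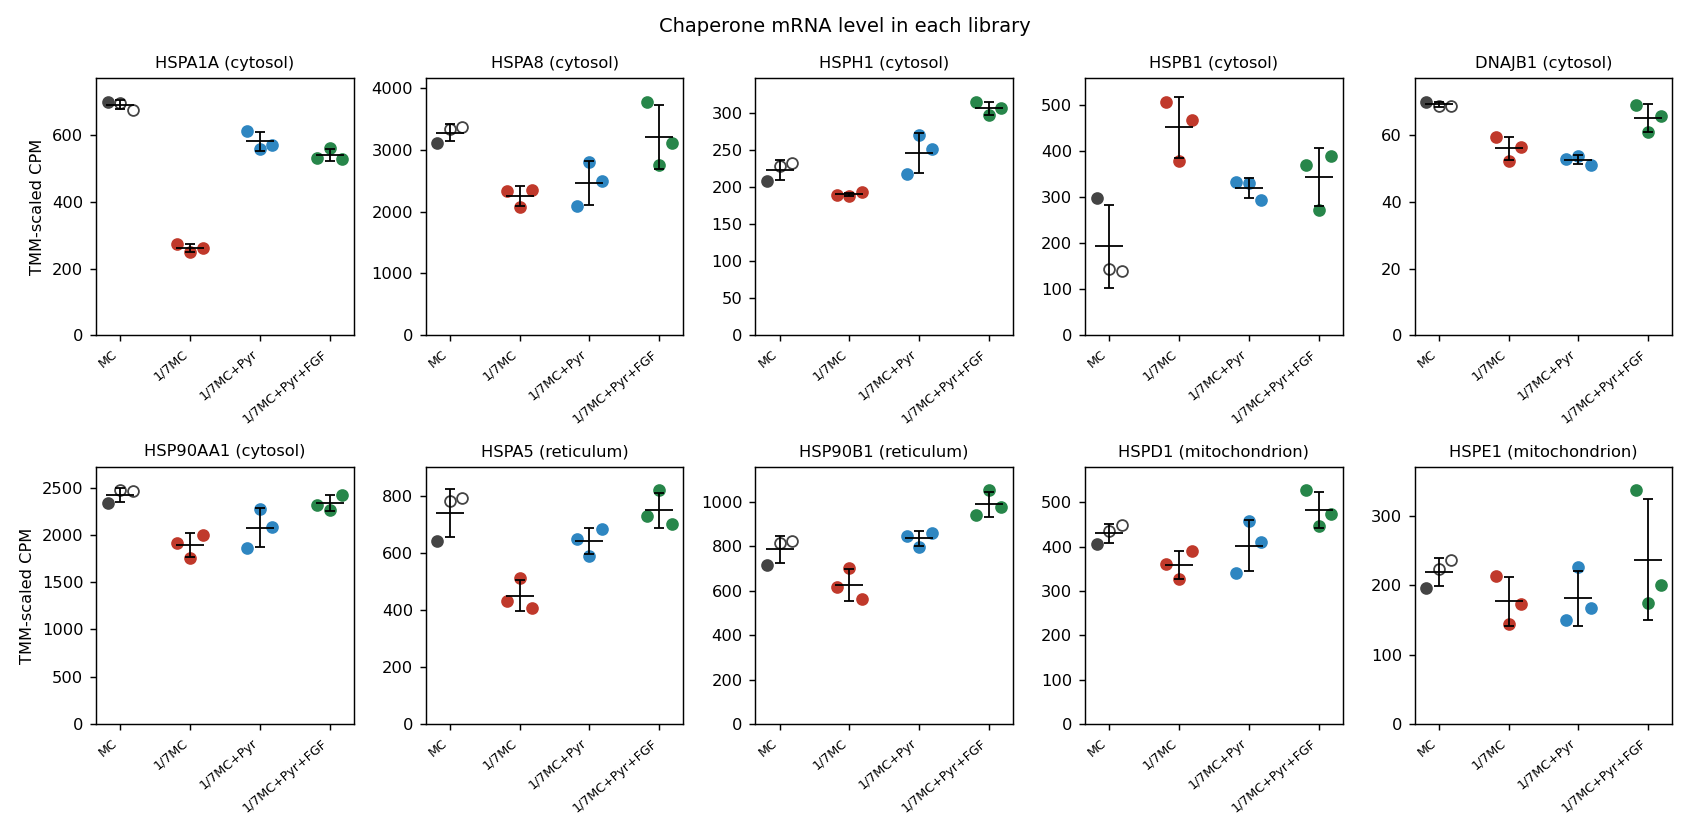
TMM-scaled CPM of each chaperone in each of the 12 libraries, with the mean and SD of each group in black (n = 3). Open points are MC replicates 2 and 3, whose gene models differed, and all vertical axes start at 0.

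HSPA1A is the classical heat-inducible HSP70. MC replicates 1 to 3 held 700.2, 698 and 676 CPM, 1/7MC 275, 249 and 263, 1/7MC+Pyr 613, 559 and 572, and 1/7MC+Pyr+FGF 533, 561 and 528. The 3 libraries of 1/7MC were far below the other 9, and 1/7MC+Pyr and 1/7MC+Pyr+FGF overlapped each other while both lay below MC. The change from MC to 1/7MC was -1.40 ± 0.08 (log2 fold change ± SE, adjusted p = 5.86e-08), or 0.379 times the MC level. Against MC replicate 1 alone it was -1.41 (adjusted p = 5.95e-06). From 1/7MC to 1/7MC+Pyr HSPA1A rose 2.22-fold, by 1.15 ± 0.08 (adjusted p = 2.36e-06). With growth factor added as well it was 1.04 ± 0.08 above 1/7MC (edgeR adjusted p = 2.99e-06), and the difference between 1/7MC+Pyr+FGF and 1/7MC+Pyr was -0.10 (95% confidence interval -0.27 to 0.06, adjusted p = 0.461). The value in 1/7MC+Pyr was -0.25 ± 0.08 from MC and that in 1/7MC+Pyr+FGF -0.35 ± 0.08. Those last 2 calls were lost with MC replicate 1 alone (adjusted p = 0.306 and 0.0774), and the first was also lost without any 1 of 1/7MC+Pyr replicate 2 or 3 or MC replicate 1, 2 or 3 (adjusted p = 0.0566 to 0.0978) or with only its 2 groups fitted (0.0506). The gene table lists HSPA1B among the other names of HSPA1A, so reads of near-identical copies cannot be separated in this value. Its neighbour HSPA1L had 3.30 to 4.28 CPM as group means.

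Among the 10, HSPA8 carries most of the cytosolic HSP70 message, and HSP90AA1 is the only cytosolic HSP90 gene. HSPA8 had 3117, 3342 and 3369.9 CPM for MC, 2336, 2073 and 2353 for 1/7MC, 2098, 2805 and 2494 for 1/7MC+Pyr and 3777, 2759 and 3104 for 1/7MC+Pyr+FGF. Every 1/7MC library lay below every MC and every 1/7MC+Pyr+FGF library, while 1/7MC+Pyr overlapped its neighbours. HSPA8 fell by 0.54 ± 0.13 on the log2 scale from MC to 1/7MC (edgeR adjusted p = 0.00483, but 0.0983 with MC replicate 1 alone). It was higher by 0.51 ± 0.13 in 1/7MC+Pyr+FGF than in 1/7MC (adjusted p = 0.0120), and its difference between 1/7MC+Pyr and 1/7MC was 0.13 (95% confidence interval -0.15 to 0.41). In 1/7MC+Pyr it was lower than in MC by -0.41 ± 0.13, a call that ended with MC replicate 1 alone (adjusted p = 0.369) and without 1/7MC+Pyr replicate 1 or 3 or MC replicate 2 or 3 (adjusted p = 0.0806 to 0.113).

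HSP90AA1, the stress-responsive cytosolic HSP90, moved less. It had 2337, 2472 and 2463 CPM for MC, 1914, 1756 and 2004 for 1/7MC, 1867, 2278 and 2089 for 1/7MC+Pyr and 2318, 2261 and 2427 for 1/7MC+Pyr+FGF. The 1/7MC values lay below all of MC and of 1/7MC+Pyr+FGF but among those of 1/7MC+Pyr. The fall from MC to 1/7MC was -0.36 ± 0.09 (adjusted p = 0.00715, but 0.180 with MC replicate 1 alone). In 1/7MC+Pyr+FGF it was 0.30 ± 0.09 above 1/7MC (adjusted p = 0.0277), a call that ended with MC replicates 2 and 3 left out of the fit (adjusted p = 0.0725) and without 1/7MC replicate 1 or 2 or 1/7MC+Pyr+FGF replicate 3 (adjusted p = 0.0625 to 0.0850). It also ended when only these 2 groups were fitted (adjusted p = 0.0787). In 1/7MC+Pyr against MC it was not called, but was lower by -0.31 without 1/7MC+Pyr replicate 2 (adjusted p = 0.0362).

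HSPH1, an exchange factor that reloads HSP70, was called higher wherever additions were compared with 1/7MC. It had 208, 228 and 233 CPM for MC, 189, 188 and 193 for 1/7MC, 217, 269 and 252 for 1/7MC+Pyr and 315, 297 and 307 for 1/7MC+Pyr+FGF. The order of the groups had 1/7MC lowest and 1/7MC+Pyr+FGF highest, with both apart from all other libraries. Adding pyruvate went with a rise of 0.37 ± 0.09 (adjusted p = 0.0122; 0.0568 without 1/7MC+Pyr replicate 3), and both additions with 0.69 ± 0.09 (adjusted p = 0.000155). HSPH1 in 1/7MC+Pyr+FGF also exceeded MC by 0.46 ± 0.09 (adjusted p = 0.00228) and by 0.54 with MC replicate 1 alone (adjusted p = 0.0261). The difference from 1/7MC+Pyr to 1/7MC+Pyr+FGF was 0.32 ± 0.09 (edgeR adjusted p = 0.0809, DESeq2 0.0203). In 1/7MC against MC it was -0.23 ± 0.09 with an adjusted p of 0.0505, just outside the threshold, and it was -0.12 with MC replicate 1 alone (adjusted p = 0.585). It passed in 6 of 14 alternatives, such as without MC replicate 1 (adjusted p = 0.0362) and with DESeq2 (0.0302).

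DNAJB1, the HSP40 partner of inducible HSP70, had the lowest level of the 10 and a small spread. It had 70.1, 68.9 and 68.9 CPM for MC, 59.3, 52.3 and 56.6 for 1/7MC, 52.7, 53.9 and 51.2 for 1/7MC+Pyr and 69.2, 60.9 and 65.9 for 1/7MC+Pyr+FGF. The 1/7MC+Pyr and 1/7MC libraries overlapped, with a difference of -0.09 (95% confidence interval -0.27 to 0.09). It fell by 0.31 ± 0.08 on the log2 scale from MC to 1/7MC (adjusted p = 0.00871, 0.106 with MC replicate 1 alone) and was -0.40 ± 0.08 from MC in 1/7MC+Pyr (adjusted p = 0.00341, 0.0779 with MC replicate 1 alone). All 3 libraries of 1/7MC+Pyr+FGF lay above all of 1/7MC+Pyr, by 0.31 ± 0.08, with an edgeR adjusted p of 0.0628 and a DESeq2 adjusted p of 0.00781. Against 1/7MC that group was 0.22 higher (edgeR adjusted p = 0.0624, DESeq2 0.0308; edgeR 0.0409 without 1/7MC+Pyr+FGF replicate 2).

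HSPB1, the small heat shock protein HSP27 that holds unfolded proteins without ATP, went the other way. It had 297, 143 and 139 CPM for MC, 506, 378 and 468 for 1/7MC, 332, 329 and 293 for 1/7MC+Pyr and 368, 271 and 388 for 1/7MC+Pyr+FGF. The 1/7MC libraries lay above all MC and all 1/7MC+Pyr libraries, and MC replicate 1 lay within the range of the 1/7MC+Pyr+FGF group. HSPB1 rose by 1.22 ± 0.25 from MC to 1/7MC (adjusted p = 0.00186), and by 0.61 ± 0.21 with MC replicate 1 alone (adjusted p = 0.0479). From 1/7MC to 1/7MC+Pyr its change was -0.50 ± 0.25 (adjusted p = 0.195). That difference passed at -0.50 when MC replicates 2 and 3 were left out of the fit (adjusted p = 0.0276) and at -0.49 when only these 2 groups were fitted (adjusted p = 0.0125). The value for 1/7MC+Pyr+FGF against 1/7MC was -0.40 (adjusted p = 0.268), and -0.42 without MC replicates 2 and 3 (adjusted p = 0.0410). Its calls above MC in 1/7MC+Pyr (0.72) and 1/7MC+Pyr+FGF (0.83) were 0.12 and 0.19 with MC replicate 1 alone (adjusted p = 0.824 and 0.591). The first ended without any 1 of 5 libraries, all but MC replicate 1 (adjusted p = 0.0819 to 0.177), and the second without MC replicate 2 or 3 or 1/7MC+Pyr+FGF replicate 1 or 3 (0.0701 to 0.0979). Both ended with only the groups compared fitted (adjusted p = 0.102 and 0.0996).

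In the reticulum, HSPA5 (BiP, the HSP70 of that compartment and a sensor of its stress) had 641, 781 and 792 CPM for MC, 432, 510.2 and 407 for 1/7MC, 648, 590.0 and 681 for 1/7MC+Pyr and 729.9, 818 and 699.7 for 1/7MC+Pyr+FGF. The 1/7MC libraries were below all other 9, and every 1/7MC+Pyr+FGF library was above every 1/7MC+Pyr library. HSPA5 changed by -0.71 ± 0.12 from MC to 1/7MC (adjusted p = 0.000319), and by -0.50 with MC replicate 1 alone (adjusted p = 0.0425). It rose by 0.51 ± 0.12 where pyruvate was added (adjusted p = 0.00928; 0.0503 without 1/7MC replicate 3) and by 0.74 ± 0.12 with both additions (adjusted p = 0.000612). Neither addition group was called different from MC, at -0.21 and 0.02.

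HSP90B1 (GRP94, the HSP90 of the reticulum) followed HSPA5. It had 717, 816 and 825 CPM for MC, 615, 702 and 560.3 for 1/7MC, 848, 798 and 861 for 1/7MC+Pyr and 941, 1051 and 976 for 1/7MC+Pyr+FGF. Every 1/7MC library was again below every other, and every 1/7MC+Pyr+FGF library was above every other. The change from MC to 1/7MC was -0.33 ± 0.10 (adjusted p = 0.0164). It was -0.18 with MC replicate 1 alone (adjusted p = 0.453), and it missed the threshold without MC replicate 2 or 3 or 1/7MC replicate 1 or 3 (adjusted p = 0.0529 to 0.0702) or with only these 2 groups fitted (0.0538). HSP90B1 rose by 0.42 ± 0.10 where pyruvate was added (adjusted p = 0.0117), with adjusted p = 0.0584 if 1/7MC replicate 3 was left out and 0.0534 if 1/7MC+Pyr replicate 3 was. With both additions the rise was 0.66 ± 0.10 (edgeR adjusted p = 0.000439). It stood 0.33 ± 0.10 above MC in 1/7MC+Pyr+FGF (adjusted p = 0.0221), a call that ended with MC replicate 1 alone (0.45, adjusted p = 0.0976) and without MC replicate 1 or 2 or 1/7MC+Pyr+FGF replicate 2 (adjusted p = 0.0502 to 0.0766).

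In the mitochondrion, HSPD1 (HSP60) had 407, 435 and 448 CPM for MC, 360.3, 327 and 389.8 for 1/7MC, 341, 457 and 410.4 for 1/7MC+Pyr and 527, 448 and 474 for 1/7MC+Pyr+FGF. The groups overlap except that 1/7MC lay below MC and below 1/7MC+Pyr+FGF. Only the rise of 0.43 ± 0.11 from 1/7MC to 1/7MC+Pyr+FGF passed (adjusted p = 0.0155), and it was lost without 1/7MC replicate 2 or 1/7MC+Pyr+FGF replicate 1 (adjusted p = 0.0647 and 0.0579). The value for 1/7MC against MC was -0.26 (adjusted p = 0.0807), with -0.17 for MC replicate 1 alone (adjusted p = 0.516) and an adjusted p of 0.0401 when only these 2 groups were fitted. The value for 1/7MC+Pyr against 1/7MC was 0.17, with a 95% confidence interval of -0.08 to 0.41.

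HSPE1 (HSP10, the lid of the HSP60 chamber) was called in none of the 6 comparisons by edgeR, nor under any of the 14 alternatives, DESeq2 included. It had 196, 223 and 236 CPM for MC, 214, 144 and 173 for 1/7MC, 149.5, 226 and 167 for 1/7MC+Pyr and 337, 174 and 200.3 for 1/7MC+Pyr+FGF. All pairs of groups overlap, and 1/7MC+Pyr+FGF replicate 1 is the highest library. Its SE of 0.23 compares with 0.25 for HSPB1 and 0.08 to 0.13 for the other 8, and its interval in 1/7MC+Pyr+FGF against 1/7MC ran from -0.08 to 0.93. At an unadjusted p under 0.05 HSPE1 was also uncalled in each comparison.

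Ratios of counts within a library need no scaling for depth. For HSPA1A over HSPA8, inducible over constitutive HSP70, the ratio was 0.200 to 0.225 for MC, 0.112 to 0.120 for 1/7MC, 0.199 to 0.292 for 1/7MC+Pyr and 0.141 to 0.203 for 1/7MC+Pyr+FGF. The 1/7MC libraries were thus below all other 9. The 2-sided exact permutation p was 0.1 for 1/7MC against each other group, the smallest that 3 libraries against 3 allow, and 0.343 when adjusted over 24 ratio tests. For HSPA5 over HSP90B1 the 3 MC libraries had 0.895, 0.956 and 0.961, and the other 9 had 0.702 to 0.791. MC replicate 1, counted like the other 9, stood on the MC side, and the exact permutation p was again 0.1 for each group against MC.

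HSPE1 over HSPD1, the lid over the chamber, ranged from 0.388 to 0.639 with every pair of groups overlapping. The 2 highest ratios were 0.639 in 1/7MC+Pyr+FGF replicate 1 and 0.593 in 1/7MC replicate 1. HSPE1 has a length of 479 bases in the count table and HSPD1 2810. The share of counts in genes under 1000 bases ran from 9.26% to 12.8% and was highest in 1/7MC+Pyr+FGF replicate 1, with 11.8% in 1/7MC replicate 1. The part of that share in the HSPE1 values was not tested.

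**Figure D4:**
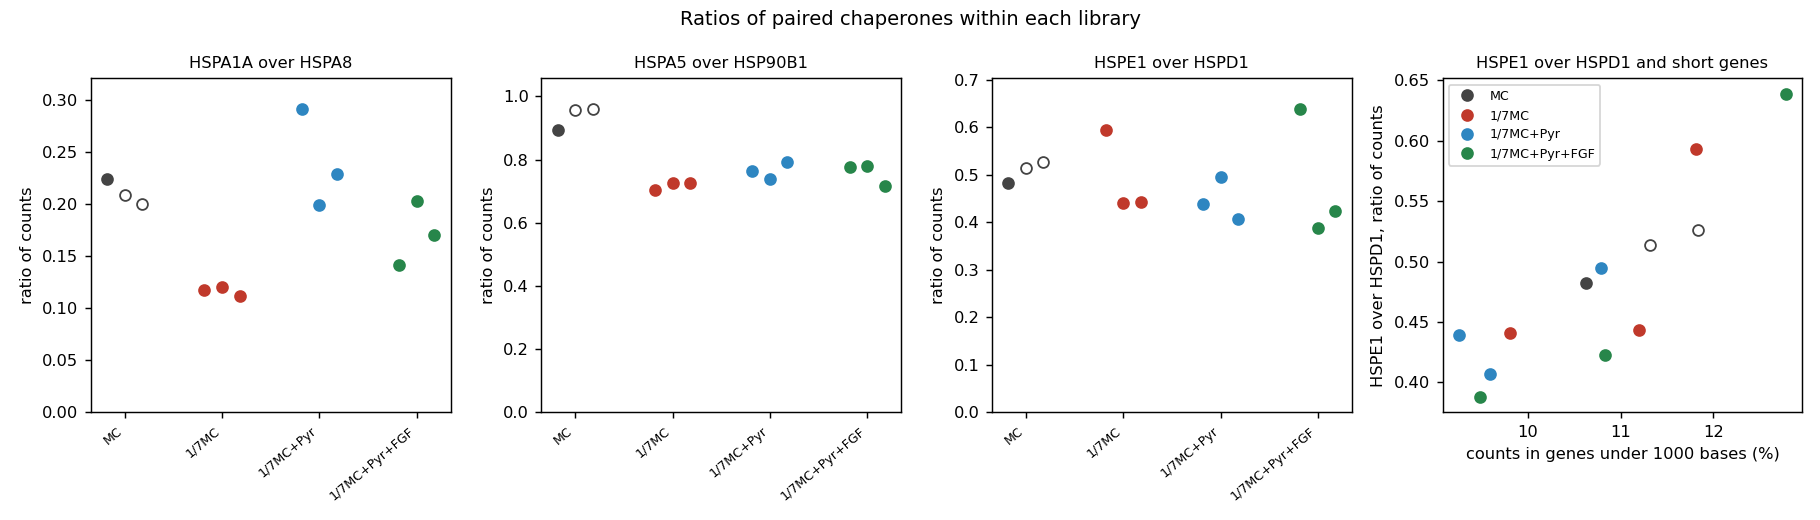
Ratio of counts within each library for 3 pairs of chaperones, by group, and in the last panel HSPE1 over HSPD1 against the percentage of counts in genes under 1000 bases. Open points are MC replicates 2 and 3; the 1/7MC libraries are lowest for HSPA1A over HSPA8 and the MC libraries highest for HSPA5 over HSP90B1, and the axes of the last panel do not start at 0.

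Other genes of the same systems were taken from 7 lists with 105 tested genes. Among 29 other cytosolic chaperones and co-chaperones, 6 were higher and 11 lower in 1/7MC than in MC, with a median of -0.22, where 23.7% of all genes were called higher and 21.3% lower. With MC replicate 1 alone the counts were 4 and 5. The small heat shock proteins split: CRYAB, the alpha-B crystallin related to HSPB1, rose by 1.44 ± 0.21 and HSPB6 by 0.84 ± 0.17, while HSPB8 fell by 1.11 ± 0.13 on the log2 scale. With MC replicate 1 alone all 3 were called (adjusted p = 0.00326, 0.0126 and 0.000953). Mean CRYAB CPM went from 156 to 425 between MC and 1/7MC and was 212 where pyruvate was added, lower than 1/7MC at an adjusted p of 0.00530. CHORDC1, a co-chaperone of HSP90, fell by 0.82 ± 0.12 (-0.64 with MC replicate 1 alone, adjusted p = 0.00988). HSP90AB1, another cytosolic HSP90, averaged 5797 CPM for MC and 3778 for 1/7MC, beside 2424 and 1891 for HSP90AA1, not scaled to gene length. It fell by 0.62 ± 0.11. With MC replicate 1 alone its change was smaller, at -0.35, and was not called. Its difference between 1/7MC+Pyr and 1/7MC was 0.07 (edgeR adjusted p = 0.740).

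With both additions against 1/7MC, 6 of the 29 were higher and 4 lower (3 and 4 without MC replicates 2 and 3), with a median of 0.23, beside 11.9% and 15.7% of all genes. FKBP4, a co-chaperone of HSP90, rose by 0.59 ± 0.13 and HSPA4, an HSP70 exchange factor, by 0.43 ± 0.10. CRYAB was at -1.13 ± 0.21, HSPB6 at -1.04 ± 0.17 and DNAJA4 at -0.94 ± 0.16, all 3 called lower. HSPB8 was called higher, at 0.84 ± 0.13. With pyruvate alone 1 was higher and 3 were lower (8.08% and 10.1% of all genes), and without 1/7MC replicate 2 or 3 or 1/7MC+Pyr replicate 3 none was higher and 1 or 2 were lower. Of the 14 subunits of the CCT chaperonin and of prefoldin, which fold actin and tubulin, none was called in 1/7MC+Pyr against 1/7MC by edgeR or DESeq2, with 1 lower at an unadjusted p under 0.05 and 2 lower when only these 2 groups were fitted. From 1/7MC+Pyr to 1/7MC+Pyr+FGF their median was 0.30, and 0 were called by edgeR's adjusted p or DESeq2. At an unadjusted p under 0.05, 8 of the 14 were higher (8.46% of all genes). CCT2 (0.61 ± 0.17) and CCT5 (0.36 ± 0.09) were the 2 of the 14 called higher in 1/7MC+Pyr+FGF than in 1/7MC, beside 11.9% of all genes. Only 1 of the list was called without 1/7MC replicate 2 or 1/7MC+Pyr+FGF replicate 1, and 4 without 1/7MC+Pyr+FGF replicate 2.

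Among the regulators, HSF1, the main activator of heat shock genes, averaged 142 CPM for MC and 116 for 1/7MC (-0.30 ± 0.10, adjusted p = 0.0232, 0.263 with MC replicate 1 alone). Its differences between the other 3 groups did not pass, at 0.16, 0.12 and -0.04. HSF2, a related factor, was higher in 1/7MC than in MC by 0.35 ± 0.13 (0.60 with MC replicate 1 alone, adjusted p = 0.0196) and lower in 1/7MC+Pyr than in 1/7MC by -0.78 ± 0.13 (adjusted p = 0.00131). Its rise of 0.64 ± 0.13 from 1/7MC+Pyr to 1/7MC+Pyr+FGF (adjusted p = 0.0218) was lost without replicate 1 or 3 of either group, where 0 of the 4 regulators was called. HSBP1, a small protein that binds HSF1, rose by 0.58 ± 0.16 from MC to 1/7MC and was at -0.56 ± 0.16 with pyruvate added (adjusted p = 0.0110 and 0.0294). Of the 4 regulators, 2 were called higher and 1 lower in 1/7MC against MC, beside 23.7% and 21.3% of all genes. Without 1/7MC replicate 2 or MC replicate 3, 1 was called. Where pyruvate was added 2 of the 4 were called lower, beside 10.1% of all genes, and 1 was called without any 1 library other than 1/7MC+Pyr replicate 2.

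Chaperones and folding enzymes of the reticulum other than HSPA5 and HSP90B1 numbered 20, of which 7 rose where pyruvate was added and none fell, with a median of 0.24, beside 8.08% of all genes called higher and 10.1% lower. At an unadjusted p under 0.05 there were 9 and 0, and DESeq2 called 8 and 0. The count was 4 with MC replicates 2 and 3 left out of the fit, 2 without 1/7MC replicate 1, 1 without 1/7MC replicate 3, and 2 without either 1/7MC+Pyr replicate 1 or 3. HYOU1, an HSP110 of the reticulum, rose by 0.69 ± 0.17, the disulfide isomerase P4HB by 0.41 ± 0.09, and the lectin chaperones CALR and CANX each by 0.39 (SE 0.09 and 0.11). With both additions against 1/7MC, 11 rose and 0 fell by edgeR (0 also at an unadjusted p under 0.05 and by DESeq2), with a median of 0.33, beside 11.9% and 15.7% of all genes, and 6 rose without 1/7MC replicate 3. In 1/7MC against MC only 2 of the 20 were higher and 2 lower, with a median of -0.06, beside 23.7% and 21.3% of all genes. Of those 2 lower genes, HYOU1 was at -0.65 ± 0.17 (-0.67 with MC replicate 1 alone, adjusted p = 0.0653), and TXNDC5, a disulfide isomerase, was at -1.31 ± 0.34 but 0.02 with MC replicate 1 alone.

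Of 15 genes of the unfolded protein response, EIF2AK3 (PERK, the kinase that slows translation) rose by 0.66 ± 0.15 and DERL3, which moves misfolded proteins out of the reticulum, by 0.53 ± 0.12 where pyruvate was added. PPP1R15A, the phosphatase subunit that restores translation, was at -0.39 ± 0.10, and edgeR called no other member of that list with all 12 libraries. DESeq2 called 3 higher (9.26% of all genes) and 1 lower. At an unadjusted edgeR p under 0.05, 6 were higher (14.4% of all genes) and 1 lower. With only these 2 groups fitted 4 were higher and 1 lower. By edgeR's adjusted p with all 12 libraries, 8.08% of all genes were higher and 10.1% lower in this comparison. DERL3 was also lower in 1/7MC than in MC, by -0.76 ± 0.12 (-0.84 with MC replicate 1 alone, adjusted p = 0.00287). Called in the same comparison, DDIT3, the CHOP factor of prolonged stress, was at -0.68 ± 0.18, with adjusted p = 0.0671 with MC replicate 1 alone. In 1/7MC against MC 4 of the 15 were lower by edgeR, and 0 were higher by edgeR, DESeq2 or an unadjusted p under 0.05 (2 lower with MC replicate 1 alone). Over all genes 21.3% were lower there and 23.7% higher. ATF4 differed by 0.08 between 1/7MC+Pyr and 1/7MC (adjusted p = 0.633). TRIB3, a target of ATF4 and CHOP, had the largest change of the list with both additions against 1/7MC, at 1.48 ± 0.22, from a mean of 1.87 CPM to 5.24. XBP1 rose by 0.39 ± 0.11 in that comparison, where 3 of the list were higher and 1 lower (1 and 1 without 1/7MC replicate 1).

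Mitochondrial chaperones and proteases other than HSPD1 and HSPE1 numbered 15. In 1/7MC against MC 5 were lower and none higher by edgeR (2 higher at an unadjusted p under 0.05, 1 with DESeq2), beside 21.3% and 23.7% of all genes. TRAP1, the mitochondrial HSP90, was at -0.49 ± 0.08 and was the 1 that remained with MC replicate 1 alone (-0.41, adjusted p = 0.0313). Without 1/7MC replicate 1, MC replicate 2 or MC replicate 3 the count was 2, and without 1/7MC replicate 2 it was 2 lower and 1 higher. None was called where pyruvate was added, with 2 higher at an unadjusted p under 0.05 and 1 with DESeq2. With both additions HSPA9, the mitochondrial HSP70, rose by 0.53 ± 0.10, from 362 to 521 CPM, and 3 of the 15 were called higher in all, beside 11.9% of all genes. Leaving out any library but 1/7MC+Pyr+FGF replicate 2 gave 1 of the 15, as did leaving MC replicates 2 and 3 out of the fit.

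The list of collagen chaperones takes in genes that act in the reticulum on procollagen. It also holds enzymes that modify procollagen, such as PLOD2, and is not made of chaperones alone. Of 8, 5 were higher in 1/7MC than in MC and none lower by edgeR, at an unadjusted p under 0.05 or by DESeq2, with a median of 0.38, beside 23.7% of all genes called higher. With MC replicate 1 alone 2 remained, PLOD2 and P4HA1, and 3 were called without 1/7MC replicate 1 or 2 or MC replicate 2. PLOD2, a lysyl hydroxylase, rose by 3.20 ± 0.14, from a mean of 7.84 CPM to 71.9. It was at -1.15 ± 0.13 in 1/7MC+Pyr+FGF against 1/7MC. SERPINH1 (HSP47, the collagen-specific chaperone) was at 0.16 ± 0.09 in 1/7MC against MC (adjusted p = 0.176) and rose by 0.39 ± 0.09 where pyruvate was added (adjusted p = 0.0132), the 1 call of the list there, which became 0 calls when 1/7MC replicate 3 was left out and 2 when 1/7MC+Pyr replicate 2 was. In 1/7MC against MC all 15 fibroblast and feeder markers were called higher and 7 of the 8 stem cell markers lower, and where pyruvate was added 7 of the 8 stem cell markers were higher and the fibroblast and feeder markers had 2 higher and 5 lower (2 and 2 without 1/7MC+Pyr replicate 3). Of all genes, 23.7% were higher and 21.3% lower in the first comparison, and 8.08% higher and 10.1% lower in the second. The part of these markers in the results on the lists was not tested.

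**Figure D5:**
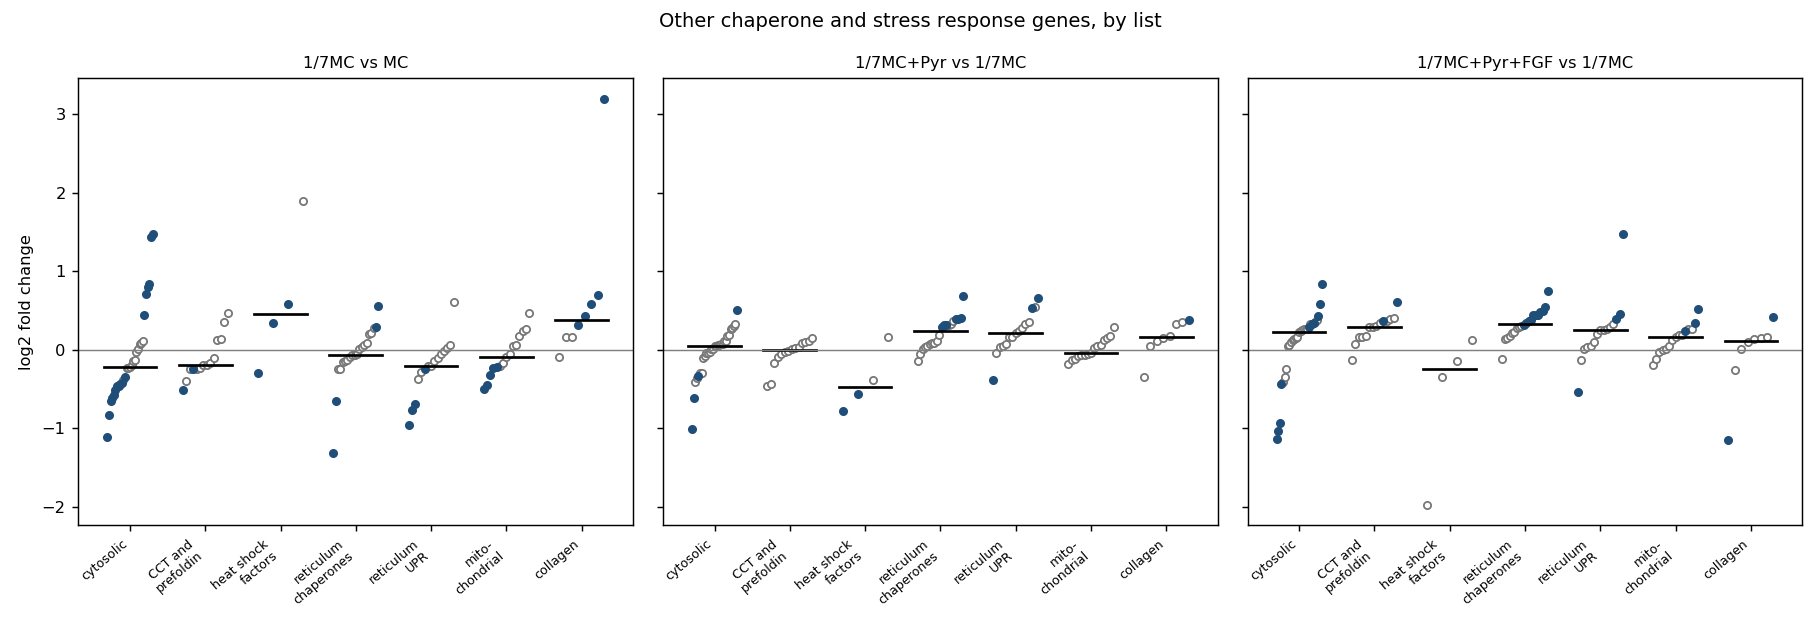
Log2 fold change of the other chaperone and stress response genes in 7 lists and 3 comparisons, 1 point per gene, with the median of each list as a black line. Filled points passed an adjusted p under 0.05; in the middle panel the 7 filled points of the reticulum chaperones all lie above 0, and the high point of the collagen list in the first panel is PLOD2 at 3.20.

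The genes most like 3 of the chaperones were sought over the 9 libraries of the 3 groups other than MC, by Pearson's r of log2 CPM among 10538 genes with a mean of at least 5 CPM. These libraries fall into 3 groups, so r carries the difference between groups as well as the spread within them, and the values are a description. For HSPA5 the closest of all 10538 was its fellow chaperone HSP90B1 (r = 0.991, Spearman's rho = 0.983), ahead of GGTA1 (0.987) and DSC2 (0.984) among others. For HSPA1A they were the tight junction genes CLDN11 (0.991) and OCLN (0.989), LY6E (0.988) and IGFBP3 (0.987). For HSPD1 they were SDHD (0.997), SGO1 (0.994), PCGF6 (0.993) and DNAJC2 (0.992).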

How the data were processed

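Whole-number counts per gene were deposited for 12 libraries, with no normalisation by the authors in the values. Per the labels' protocols, poly-T beads drew out the mRNA and a NEBNext Ultra kit was used, and no strand-marking step is stated. Overlapping, antisense and near-identical genes are therefore uncertain. The submitters' processing notes name HISAT2 2.1.0, Subread 2.0, featureCounts, fastp 0.19.7 and the build bosTau9, per the labels; the gene annotation is not given in the sources used here. Gene lengths are those the authors deposited beside the counts. The authors' table of scaled values was not used.

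Of 19285 entries, 400 that shared an identifier with another entry were left out (1.07% to 1.40% of the counts of a library). Symbols came from a gene table of assembly ARS-UCD2.0, which matched 19195 entries; no coordinates are given because the builds differ. HSPA6, BAG1, BAG5, ERN1, TIMM44 and LEPREL4 were not analysed here. Genes were filtered with filterByExpr, scaled by TMM (factors 0.968 to 1.04) and tested with edgeR 4.0.16 (quasi-likelihood F test, 1 coefficient per group, all 12 libraries). Benjamini-Hochberg adjustment covered 13920 genes, with a threshold of 0.05. The fit without MC replicates 2 and 3 tested 14361. The SE is the size of the log2 fold change over the root of F. DESeq2 1.42.0 was the second tool; R was 4.3.3, limma 3.58.1, Python 3.11.15 and matplotlib 3.10.9. The scripts were tested on simulated data. Within-library ratios were compared by exact permutation tests.

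All 10 chaperones were named in every comparison. From each list, the genes named are among those with the largest called change in a comparison, at most 4, or were chosen after their values were seen (HSP90AB1, HSPA1L, CHORDC1, HSPA4, FKBP4 and ATF4, and uncalled values given beside a called one). The members and lists were chosen with earlier results of these data known. For HSPA5, 1 of the genes most like it is not reported here.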

Additional observations from a re-analysis of the deposited data

How the results depend on the processing

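Over 60 member comparisons and 14 alternatives each, 771 values kept their side of the threshold and 15 gained and 54 lost a call. Uncalled comparisons, which had no call to lose, are among the 60. The calls most often lost were those of HSPB1 (9 of 14 alternatives) and HSPA1A (7 of 14) in 1/7MC+Pyr against MC. The other sign was seen in 9 alternative values, 0 of them of a called change. With replicate 1 alone for MC (an alternative chosen after seeing the data where the comparison holds no MC), the number of chaperones called was 3 in 1/7MC against MC (7 with all libraries), 0 in 1/7MC+Pyr against MC (4) and 1 in 1/7MC+Pyr+FGF against MC (4). When only the groups compared were fitted, 1/7MC+Pyr against MC had 2 (22% of all genes). With DESeq2, 1/7MC+Pyr+FGF against 1/7MC+Pyr had 2 (0 with edgeR). Leaving out 1 library gave 6 to 8 in 1/7MC against MC, 2 to 4 in 1/7MC+Pyr against 1/7MC, 0 in 1/7MC+Pyr+FGF against 1/7MC+Pyr, 5 to 8 in 1/7MC+Pyr+FGF against 1/7MC, 1 to 3 in 1/7MC+Pyr against MC and 2 to 3 in 1/7MC+Pyr+FGF against MC. In the first 3 of these 35.5% to 49.3%, 10.1% to 15.9% and 0.898% to 3.11% of all genes were called. For the last 3 the shares were 19.1% to 22.7%, 18.2% to 36.5% and 21.4% to 37.8%. In 1/7MC+Pyr against 1/7MC the 2 calls came without 1/7MC replicate 3 or 1/7MC+Pyr replicate 3, where 10.4% and 10.1% of all genes were called (18.1% with all). Other size factors, other filters on low counts and keeping the entries with shared identifiers moved no count of members by over 1.5 times.

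The labels do not say whether same-numbered libraries share a batch. Their deviations from the group means correlated at -0.316 to 0.333 over 18 pairs, with 2 over 0.1, which cannot settle it. With the replicate block the counts called were 7 in 1/7MC against MC, 4 in 1/7MC+Pyr against 1/7MC, 0 in 1/7MC+Pyr+FGF against 1/7MC+Pyr, 7 in 1/7MC+Pyr+FGF against 1/7MC, 3 in 1/7MC+Pyr against MC and 4 in 1/7MC+Pyr+FGF against MC. Of all genes, 42.8%, 15.5%, 1.3%, 24.4%, 25.9% and 29.8% were called under the block in the same order. HSPA8 in 1/7MC+Pyr against MC was the 1 member call lost under the block (adjusted p = 0.0631). Of the 4 heat shock regulators, the block left 1 of 2 calls in 1/7MC+Pyr against 1/7MC and 0 of 1, HSF2, in 1/7MC+Pyr+FGF against 1/7MC+Pyr. In that second comparison it left 0 of 1 call of the unfolded protein response list, TRIB3, and 0 of 3 of the fibroblast and feeder markers, and in 1/7MC against MC 1 of 2 calls of the CCT and prefoldin list.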
